A study of Rattus norvegicus with 6 samples.

Results

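The FGF, BMP and TGF beta signalling genes were examined in the vestibular sensory epithelium of rats given 3,3'-iminodipropionitrile (IDPN), a nitrile toxic to inner ear hair cells (HCs). The members were the genes of the count table whose symbols name a fibroblast growth factor, an FGF receptor, a bone morphogenetic protein, a BMP, TGF beta or activin receptor, a TGF beta, a growth differentiation factor, an inhibin beta subunit or a SMAD. After the family name a symbol could hold only digits or the letters a to c, so Inhbe and Acvrl1, for example, were left out. Noggin (Nog), chordin (Chrd), gremlin 1 (Grem1) and follistatin (Fst) were added. This gave 76 of 32883 genes, by a rule that uses symbols and no measured value. The rule was set with earlier results of these data known. The 6 animals were adult male Long-Evans rats. The control group of 3 rats drank plain water and the IDPN-4wk group of 3 rats drank water with 20 mM IDPN for 4 weeks. From each rat, 2 utricles and 6 cristae formed 1 sample, so that a library held HCs, supporting cells and the nerve endings and stroma that remained after dissection, and each replicate was a separate animal.

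FGFs and the TGF beta superfamily are secreted ligands that pattern the inner ear and maintain its tissues. FGFs act through receptor tyrosine kinases that drive ERK signalling, whose output includes its own feedback inhibitors. BMPs, GDFs, activins and TGF betas bind pairs of type I and type II serine/threonine kinase receptors, which phosphorylate receptor SMADs. These join SMAD4 and enter the nucleus, and inhibitory SMADs and secreted binding proteins limit the signal.

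Depth ranged from 13358678 to 18561991 counts per library, so that a count of 0 allowed up to 3 counts, from 0.155 to 0.216 CPM (counts scaled to a common library size). All CPM values below were scaled with TMM factors, and they were compared between libraries and not between genes, since no transcript lengths were at hand. Marker genes of HCs were present in every library. Of 15 HC markers, 10 were downregulated and 0 upregulated, and of 11 supporting cell markers tested, 3 were downregulated and 0 upregulated. Over all genes tested, 6.62% were downregulated and 3.09% upregulated. The summed HC markers ranged from 8124 to 9253 CPM in the controls and from 3446 to 4597 CPM in exposed animals, and the supporting cell markers from 11969 to 13188 CPM against 6546 to 8089 CPM. Several of these HC markers, among them Ptprq, Ocm2, Myo7a and Spp1, were picked out by the study partly on these samples, so the list is not independent evidence of its direction. The supporting cell sum was carried by its 3 called genes, Otog, Otoa and Gjb6, while Sox9 and Hes1 had higher means and the median log2-Fold change of that list was -0.33. Among dark cell and melanocyte markers 3 of 8 were downregulated and 7 of 8 had lower means, with a median log2-Fold change of -0.63. Among Schwann cell markers 1 of 8 was downregulated and 6 of 8 had lower means, with a median of -0.49. The dark cell and melanocyte sum was from 1970 to 2537 CPM in control against 1414 to 1579 CPM in IDPN-4wk libraries. Of 10 macrophage markers 1 was downregulated and 1 upregulated, and of 4 endothelium markers edgeR called 0. In whole tissue, fewer cells of a type and less RNA per cell cannot be told apart.

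Of the 76 members, 48 had enough counts to be tested, and 7 of these changed. Genes were called changed when the adjusted p (Padj) of edgeR's quasi-likelihood test, adjusted over all 14352 genes tested, was under 0.05 and the fold change was over 1.5. By this rule 9.71% of all genes tested were called. The downregulated members were Bmp2, Bmp3, Grem1, Fgf9 and Fgf12, where 6.62% of all genes were called lower. The upregulated members were Chrd and Fst, where 3.09% of all genes were called higher. The called members were 14.6% of those tested, a count too small to set apart from the share of all genes. Padj alone was under 0.05 in 10 members, against 19.4% of all genes, the additional ones being Fgfr1, Tgfb2 and Tgfbr2. The median log2-Fold change was -0.13 over the tested members and 0.02 over all tested genes.

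**Figure D1:**
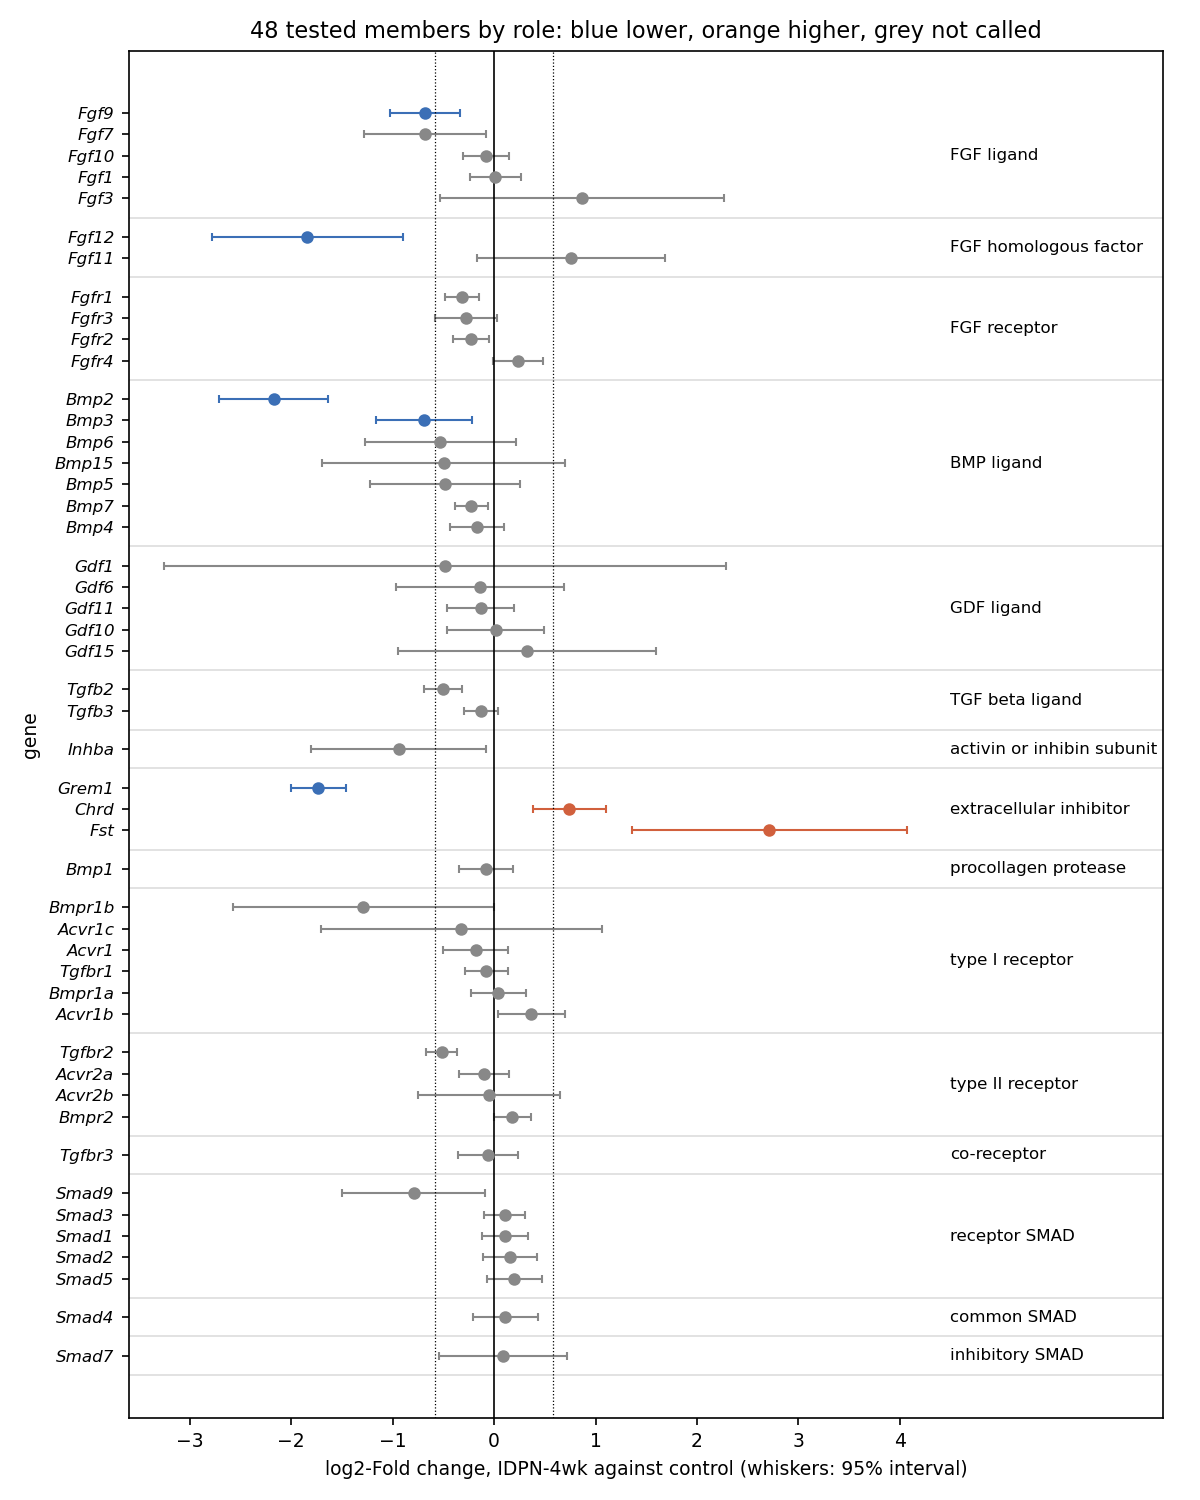
Log2-Fold changes (horizontal axis, IDPN-4wk against control) of the 48 tested members, grouped by role, with 95% intervals as whiskers and dotted lines at a 1.5-fold change. The 5 blue genes were downregulated, the 2 orange genes upregulated, and every receptor and SMAD is grey.

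The calls were counted by role, with no test of the difference between roles. Of 23 secreted ligands and inhibitors tested, 6 were called, while none of 15 receptors and none of 7 SMADs was. Of those 6 calls, 3 were Grem1, Chrd and Fst, inhibitors that had been added by name. All 3 tested inhibitors were called, so the contrast between classes rests in part on that addition. Among those 22 receptors and SMADs, Padj was under 0.05 for 2 and the unadjusted p for 7 by edgeR, and DESeq2 also called none. Over all genes the unadjusted p was under 0.05 for 4744 of 14352, and 9.71% were called. The 95% interval of the fold change lay inside 1.5-fold for 10 of the 15 receptors and for 5 of the 7 SMADs. The receptors whose interval reached 1.5-fold were Acvr1b, Acvr1c, Bmpr1b, Acvr2b and Tgfbr2, and the SMADs were Smad7 and Smad9.

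Bmp2 and Grem1 had the smallest Padj of all members, and both were lower in every exposed animal. Bmp2 (ENSRNOG00000021276) encodes a BMP ligand that the study counts among HC genes from outside data and lists as downregulated partly on these samples, so its direction here is not independent evidence. Its level was 30.3, 35.9 and 23.6 CPM in the control libraries and 5.18, 5.11 and 9.66 CPM in the IDPN-4wk libraries. The groups did not overlap, as was the case for 37.8% of all genes tested, and the highest exposed library was well under the lowest control. Bmp2 fell from 29.9 ± 6.12 to 6.65 ± 2.61 CPM (± SD over 3 animals per group, log2-Fold change -2.17, SE 0.24, Padj by edgeR 1.91e-04), to 22.2% of control. The HC markers named above moved with it, and their part in the result was not tested.

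Grem1 (ENSRNOG00000026053) encodes a secreted protein that binds and blocks BMP2, BMP4 and BMP7. Its level was 52.3, 42.8 and 55.3 CPM in the controls and 15.9, 14.0 and 15.5 CPM in exposed animals. The exposed animals lay close to each other and far under all controls. Grem1 fell from 50.1 ± 6.49 to 15.1 ± 1.00 CPM (± SD over 3 animals per group, log2-Fold change -1.73, SE 0.12, Padj by edgeR 1.63e-05), to 30.1% of control. Of 8 stroma and fibroblast markers, 1 was downregulated (Lum, log2-Fold change -1.42) and 1 upregulated (Col1a1, 0.74), and their sum was from 1291 to 1457 CPM in the controls and from 1339.5 to 1469 CPM in exposed animals.

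Chordin and follistatin, which also hold BMPs or activins away from their receptors, were higher where gremlin 1 was lower. Chrd (ENSRNOG00000001750) was at 8.91, 9.85 and 8.71 CPM in the controls and at 18.0, 15.2 and 12.7 CPM in exposed animals. The controls were tightly grouped and all exposed animals lay above them. Chrd rose from 9.16 ± 0.613 to 15.3 ± 2.65 CPM (± SD over 3 animals per group, log2-Fold change 0.74, SE 0.16, Padj by edgeR 0.0101). Fst (ENSRNOG00000011631), the activin-binding protein, held 9, 2 and 2 counts in control and 21, 60 and 19 counts in IDPN-4wk libraries. It rose from 0.287 ± 0.254 to 1.94 ± 1.01 CPM (± SD over 3 animals per group, log2-Fold change 2.71, SE 0.61, Padj by edgeR 0.0115). Only the exposed animals held enough counts for Fst to pass the filter, and 2 of the controls were under 3 counts, so the size of the fold is uncertain. Among the exposed animals, 1 library stood above the others, without which Padj was 0.0608 (log2-Fold change 2.18). Padj was also over 0.05 without control replicate 2 (0.0515) or control replicate 3 (0.0525). Without control replicate 1 the log2-Fold change was 3.73 (Padj by edgeR 0.00801), so that 1 control library also moved the size of the fold. The fourth inhibitor, Nog, was too low to test, with 5, 7 and 3 counts in control and 2, 23 and 5 counts in IDPN-4wk libraries.

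The region before the start of Grem1, which fell, and of Chrd, which rose, is shown because these genes encode BMP inhibitors that moved in opposite directions and were called in all 6 fits that each left out 1 library. Each is the 250 bases upstream of the annotated start, 5′ to 3′ on the gene's strand, from RefSeq with the GRCr8 build. Grem1 lies on the minus strand at chr3:120978320-120978569 and Chrd on the minus strand at chr11:93685101-93685350. Capitals mark the motif GGCGCC, an element that BMP-activated SMADs can bind.
Grem1: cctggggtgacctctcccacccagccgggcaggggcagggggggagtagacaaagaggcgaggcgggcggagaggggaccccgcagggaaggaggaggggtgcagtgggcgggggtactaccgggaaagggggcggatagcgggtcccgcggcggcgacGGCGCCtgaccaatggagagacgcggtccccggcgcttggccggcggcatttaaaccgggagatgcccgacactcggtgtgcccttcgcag
Chrd: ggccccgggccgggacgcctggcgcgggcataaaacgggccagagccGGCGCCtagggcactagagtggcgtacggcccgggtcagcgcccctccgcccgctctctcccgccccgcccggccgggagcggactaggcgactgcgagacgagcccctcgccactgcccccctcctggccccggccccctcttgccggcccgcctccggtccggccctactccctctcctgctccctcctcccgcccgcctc
Each window held 1 copy of GGCGCC, and those of Bmp3, Fgf9 and Fgf12 held 0 copies. The motif reads the same on both strands and shares no stretch with CAGAC. It was present in 9.24% of 27457 promoter windows of this length and in 27.5% of the 40 windows found for tested members. The SMAD element CAGAC, searched on both strands, was in neither, against 42.8% of all windows and 17.5% of those of tested members. GC made up 72.0% of the Grem1 window and 78.4% of the Chrd window, with a median of 52.0% over all windows and 63.8% over tested members. These matches are descriptions of letters and not binding sites. No window was printed for Bmp2 and Fst.

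All 7 BMP ligands tested had lower mean levels in IDPN-4wk, whichever of the 4 scalings was used (TMM, size factors of DESeq2, upper quartile, or library size with no factor). A scaling moves all genes of a library alike, so the 4 scalings are not separate evidence. Over all genes tested, 6780 of 14352 had a log2-Fold change under 0. The median of the log2-Fold changes of the BMP ligands was -0.49. Of the 7, 2 were called, where 6.62% of all genes were called lower. Bmp3 (ENSRNOG00000002381), a BMP that opposes other BMPs in bone, was at 8.33, 12.0 and 12.6 CPM in the controls and 5.32, 7.69 and 7.27 CPM in exposed animals. The groups were separated by a narrow gap. Bmp3 fell from 11.0 ± 2.30 to 6.76 ± 1.26 CPM (± SD over 3 animals per group, log2-Fold change -0.69, SE 0.22, Padj by edgeR 0.0465). This call was lost in 5 of the 6 fits that left out 1 library, with the log2-Fold change from -0.85 to -0.56 and Padj up to 0.159; it was kept only without control replicate 1. It was also lost with upper quartile scaling (Padj 0.0523) and with library size alone (0.0684), both by edgeR.

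Bmp7, the BMP ligand with the most counts, was at 148, 142 and 129 CPM in the controls and at 118, 120 and 120 CPM in exposed animals. The groups did not overlap, but the difference was small (log2-Fold change -0.23, SE 0.07, Padj by edgeR 0.0525). For Bmp4, a ligand known for marking the sites of the cristae in the developing ear, the log2-Fold change was -0.17 (95% interval from -0.43 to 0.10, Padj by edgeR 0.373). Bmp5, Bmp6 and Bmp15 had few counts and log2-Fold changes of -0.48, -0.53 and -0.49, with edgeR Padj from 0.307 to 0.568. Bmp10, Bmp8a and Bmp8b reached at most 6 counts in a library. Bmp1, which by its name matched the rule, is a procollagen protease that also cleaves chordin, and its log2-Fold change was -0.08 (95% interval from -0.35 to 0.19).

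**Figure D2:**
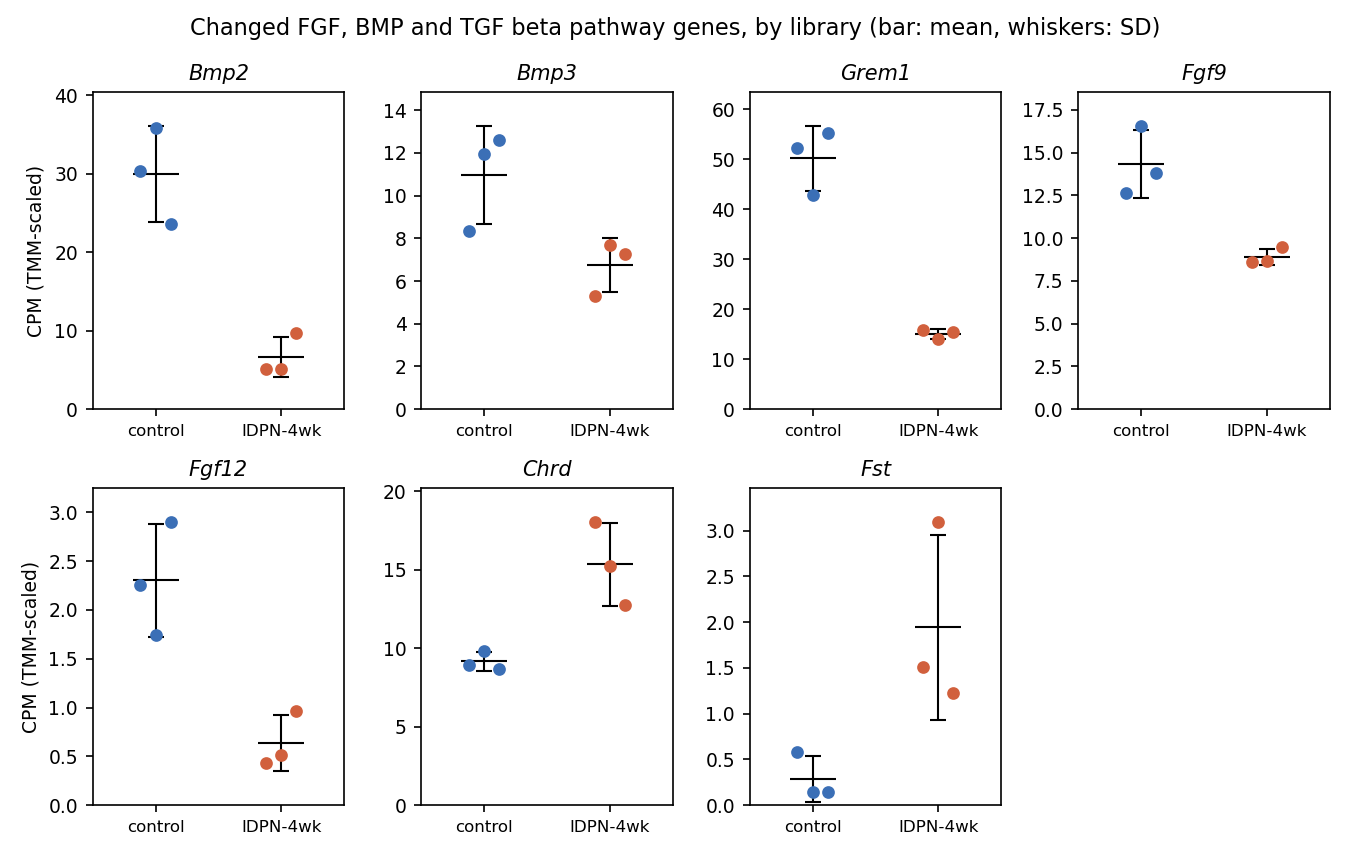
Levels in CPM (vertical axes, each from 0) of the 7 changed members in each library, control in blue and IDPN-4wk in orange, with the mean as a bar and the SD as whiskers. In all 7 panels the points of the groups do not overlap, with a narrow gap in Bmp3, from 7.69 to 8.33 CPM, and few counts in Fst and Fgf12. The groups did not overlap in 37.5% of the tested members and in 37.8% of all genes tested.

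Among the growth differentiation factors, none of the 5 tested genes was called and none had an unadjusted p under 0.05 by edgeR. Gdf11, the one with the most counts, had a log2-Fold change of -0.13 (SE 0.15, Padj by edgeR 0.579). Gdf10 was at 8.05 ± 0.784 CPM in the controls and 8.17 ± 2.15 CPM in exposed animals (± SD over 3 animals per group). Gdf15, a stress-induced cytokine that acts through a receptor of another family, stayed near 1 CPM, with 13, 22 and 4 counts in control and 18, 28 and 9 counts in IDPN-4wk libraries (log2-Fold change 0.32, 95% interval from -0.95 to 1.59). Gdf6 had a log2-Fold change of -0.14 (SE 0.38).

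Gdf1 could not be read as a gene of its own. Its counts were 0, 374 and 117 in control and 16, 435 and 1 in IDPN-4wk libraries, so animals of 1 group lay far apart. In the RefSeq table Gdf1 shares its locus with Cers1, a ceramide synthase gene, and both have the same start and end. Cers1 was low in the libraries where Gdf1 was high, with 754, 305 and 502 counts in control and 595, 484 and 742 counts in IDPN-4wk libraries. The sum of the pair was steady, at 46.7 ± 2.54 CPM in the controls and 46.4 ± 2.14 CPM in exposed animals (± SD over 3 animals per group). The authors' estimation of counts divides reads among genes that can have produced them, so Gdf1 by itself, which is still counted among the 48 tested members, gives no reading here.

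**Figure D3:**
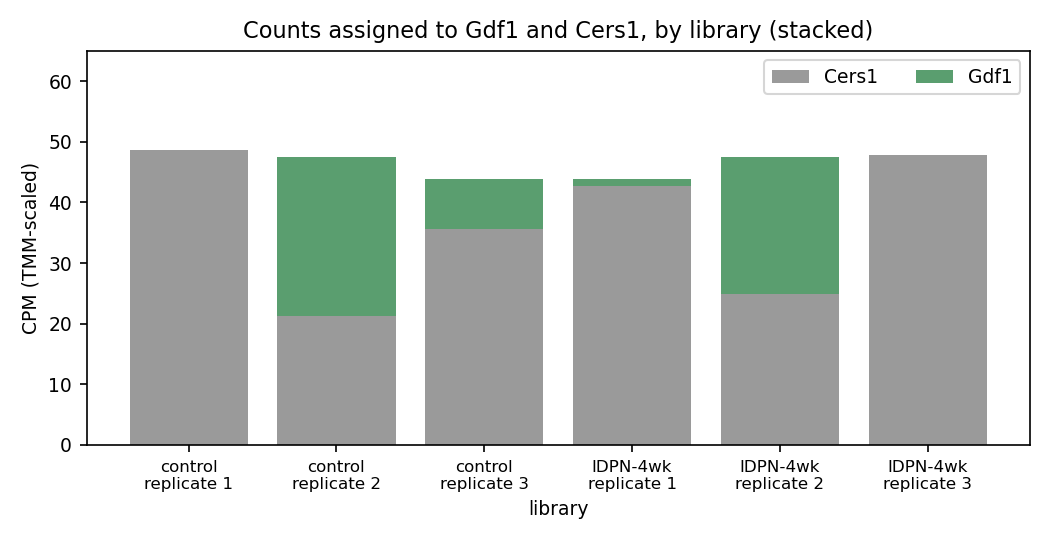
CPM (vertical axis, from 0) assigned to Cers1 (grey) and Gdf1 (green), stacked for each of the 6 libraries. The total height stays between 43.8 and 48.7 CPM while the Gdf1 part ranges from 0 to 26.1 CPM.

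BMP receptors were measured beside their ligands. Bmpr1a, a type I receptor of BMP2 and BMP4, was at 32.1 ± 4.85 CPM in the controls and 33.1 ± 2.17 CPM in exposed animals (± SD over 3 animals per group, log2-Fold change 0.04, 95% interval from -0.23 to 0.31). Its relative Bmpr1b had few counts, from 10 to 22 in control and from 2 to 11 in IDPN-4wk libraries (log2-Fold change -1.29, SE 0.58, Padj by edgeR 0.150). The type II receptor Bmpr2 was at 41.1, 41.8 and 42.9 CPM in the controls and at 49.2, 47.0 and 46.4 CPM in exposed animals. The groups did not overlap, yet the difference was a log2-Fold change of only 0.18 (SE 0.08, Padj by edgeR 0.145).

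Receptors named for activins, whatever ligands they bind, were also not called. Acvr1b, the activin type I receptor, was at 10.2 ± 0.642 CPM in the controls and 13.2 ± 1.48 CPM in exposed animals (± SD over 3 animals per group, log2-Fold change 0.37, SE 0.15, Padj by edgeR 0.114). Log2-Fold changes were -0.18 for Acvr1, -0.32 for Acvr1c, -0.10 for Acvr2a and -0.05 for Acvr2b, with edgeR Padj from 0.420 to 0.928. Inhba, which encodes the subunit of activin A, was at 3.10, 1.47 and 2.55 CPM in the controls and 0.863, 1.39 and 1.42 CPM in exposed animals. The closest libraries of the groups nearly touched, and the difference was not called (log2-Fold change -0.94, SE 0.39, Padj by edgeR 0.120). Inhbb reached at most 3 counts and Inhbc had 0 counts in all 6 libraries.

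The SMADs, which carry the signal of all these receptors, had no called member among the 7 tested. Smad1 and Smad5, of the BMP branch, had log2-Fold changes of 0.11 (SE 0.10) and 0.20 (SE 0.12), with edgeR Padj of 0.496 and 0.289. Smad2 and Smad3, of the TGF beta and activin branch, had log2-Fold changes of 0.16 (SE 0.12) and 0.10 (SE 0.09), with edgeR Padj of 0.402 and 0.473. Smad4, the common partner, was at 14.5 ± 1.88 CPM in the controls and 15.7 ± 1.69 CPM in exposed animals (± SD over 3 animals per group, log2-Fold change 0.11, 95% interval from -0.21 to 0.43). Smad9, the remaining BMP branch SMAD, was the exception in direction, at 2.71, 4.40 and 3.89 CPM in the controls and 1.44, 2.58 and 2.25 CPM in exposed animals. Its groups were separated by a narrow gap and the difference was not called (log2-Fold change -0.79, SE 0.32, Padj by edgeR 0.111). The inhibitory Smad7 had a log2-Fold change of 0.09 (SE 0.29, Padj by edgeR 0.867), and Smad6 reached at most 10 counts.

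Target genes of BMP signalling were compared as a readout beyond the members. Of 11 genes, none passed both thresholds in edgeR, 2 had an unadjusted p under 0.05, and the median log2-Fold change was -0.01. This balance turned with the scaling, from 6 lower and 5 higher with TMM to 2 lower and 9 higher with library size alone (median 0.10). The DNA-binding inhibitors Id1, Id2, Id3 and Id4 had log2-Fold changes of 0.10, -0.02, 0.12 and -0.07, with edgeR Padj from 0.288 to 0.956. Dlx5, a homeobox gene of the dorsal otic vesicle, had an edgeR Padj of 0.0465 and a log2-Fold change of 0.28, under the fold change threshold. Atoh8 had a log2-Fold change of 0.59 (Padj by edgeR 0.0562) and passed both thresholds with upper quartile scaling and with library size alone. Dlx5 and Atoh8 were picked with their values in view.

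Further modulators of BMPs and activins, secreted or on the cell surface, were also compared. Of 16 tested, 2 were downregulated and 1 upregulated, and the median of their log2-Fold changes was -0.11. The shares over all genes tested were 6.62% lower and 3.09% higher. Chrdl1, a chordin-like BMP inhibitor, was at 260, 306 and 272 CPM in the controls and 149, 164 and 198 CPM in exposed animals. It fell in every exposed animal below all controls (log2-Fold change -0.71, SE 0.11, Padj by edgeR 0.00112). Bmper, which binds BMPs and chordin, had at most 14 counts in an exposed animal and passed the filter in all 3 libraries only in the controls. It fell from 2.47 ± 0.599 to 0.675 ± 0.205 CPM (± SD over 3 animals per group, log2-Fold change -1.86, SE 0.39, Padj by edgeR 0.00797). Sostdc1, an inhibitor of BMP and WNT signalling, was at 23.7, 30.3 and 31.8 CPM in the controls and 74.9, 60.8 and 52.8 CPM in exposed animals. All exposed animals lay well above the controls (log2-Fold change 1.14, SE 0.14, Padj by edgeR 4.09e-04). Rgmb, a BMP co-receptor picked with its values in view, had an edgeR Padj of 9.37e-04 and a log2-Fold change of -0.55, under the fold change threshold.

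Of the TGF beta ligands and receptors, Tgfb2 and Tgfbr2 had a Padj under 0.05, and both were lower by less than the fold change threshold. Tgfb2 (ENSRNOG00000002418), the TGF beta with the most counts here, was at 295, 327 and 267 CPM in the controls and 210, 201 and 217 CPM in exposed animals. All exposed animals lay below the controls (log2-Fold change -0.50, SE 0.08, Padj by edgeR 0.00221). Tgfb3 had a smaller difference, from 69.9 ± 1.11 CPM in the controls to 64.0 ± 4.10 CPM in exposed animals (± SD over 3 animals per group, log2-Fold change -0.13, SE 0.08, Padj by edgeR 0.280). Tgfb1, the isoform best known from immune cells and platelets, had 6, 3 and 2 counts in control and 10, 8 and 12 counts in IDPN-4wk libraries, too few for the main test.

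Tgfbr2 (ENSRNOG00000013265), the receptor that binds TGF beta first, had closely grouped values. It was at 229, 225 and 226 CPM in the controls and 167, 157 and 150 CPM in exposed animals, a gap many times the spread of the controls. The mean went from 226 ± 1.83 to 158 ± 8.47 CPM (± SD over 3 animals per group, log2-Fold change -0.52, SE 0.07, Padj by edgeR 5.65e-04), which is 69.9% of control. Its partner Tgfbr1 was at 54.3 ± 0.994 CPM in the controls and 51.5 ± 6.32 CPM in exposed animals (± SD over 3 animals per group, log2-Fold change -0.08, 95% interval from -0.29 to 0.14). The co-receptor Tgfbr3, betaglycan, which presents TGF beta 2, had a log2-Fold change of -0.06 (95% interval from -0.36 to 0.24), and its sign turned with library size alone.

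Among genes that store TGF beta in the matrix, Ltbp1 had a larger fold change than the TGF beta ligands, a difference that was not tested. Of 15 latency and target genes tested, 3 were downregulated and 1 upregulated, and the median log2-Fold change was 0.05. The shares over all genes tested were 6.62% lower and 3.09% higher. Ltbp1, a latent TGF beta binding protein that tethers the inactive ligand, was at 682, 667 and 704 CPM in the controls and 313, 250 and 300 CPM in exposed animals. It fell to 42.0% of control with no overlap (log2-Fold change -1.25, SE 0.09, Padj by edgeR 1.66e-05). Ltbp2, a relative that binds elastic fibre proteins rather than TGF beta, fell from 45.6 ± 2.73 to 10.5 ± 2.92 CPM (± SD over 3 animals per group, log2-Fold change -2.12, SE 0.17, Padj by edgeR 3.66e-05). Ltbp3 and Ltbp4 had log2-Fold changes of -0.25 and 0.20, with edgeR Padj of 0.102 and 0.223. Thbs1, thrombospondin 1, which can activate latent TGF beta, fell as well (log2-Fold change -0.72, SE 0.16, Padj by edgeR 0.00938), but by less than 1.5-fold without IDPN-4wk replicate 3 (-0.56).

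Targets of TGF beta in the same list did not share a direction. Ctgf, a matrix-associated growth factor induced by TGF beta and by YAP, rose from 211 ± 54.6 to 773 ± 79.0 CPM (± SD over 3 animals per group, log2-Fold change 1.87, SE 0.15, Padj by edgeR 3.66e-05). Cyr61, its close relative, had a log2-Fold change of 0.14 (SE 0.09, Padj by edgeR 0.329). Tgfbi and Timp1 had edgeR Padj of 0.00383 and 0.0197 with log2-Fold changes of 0.45 and -0.40, under the fold change threshold, and were picked with their values in view. None of 10 SMAD regulators passed both thresholds in edgeR, and 3 had an unadjusted p under 0.05.

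**Figure D4:**
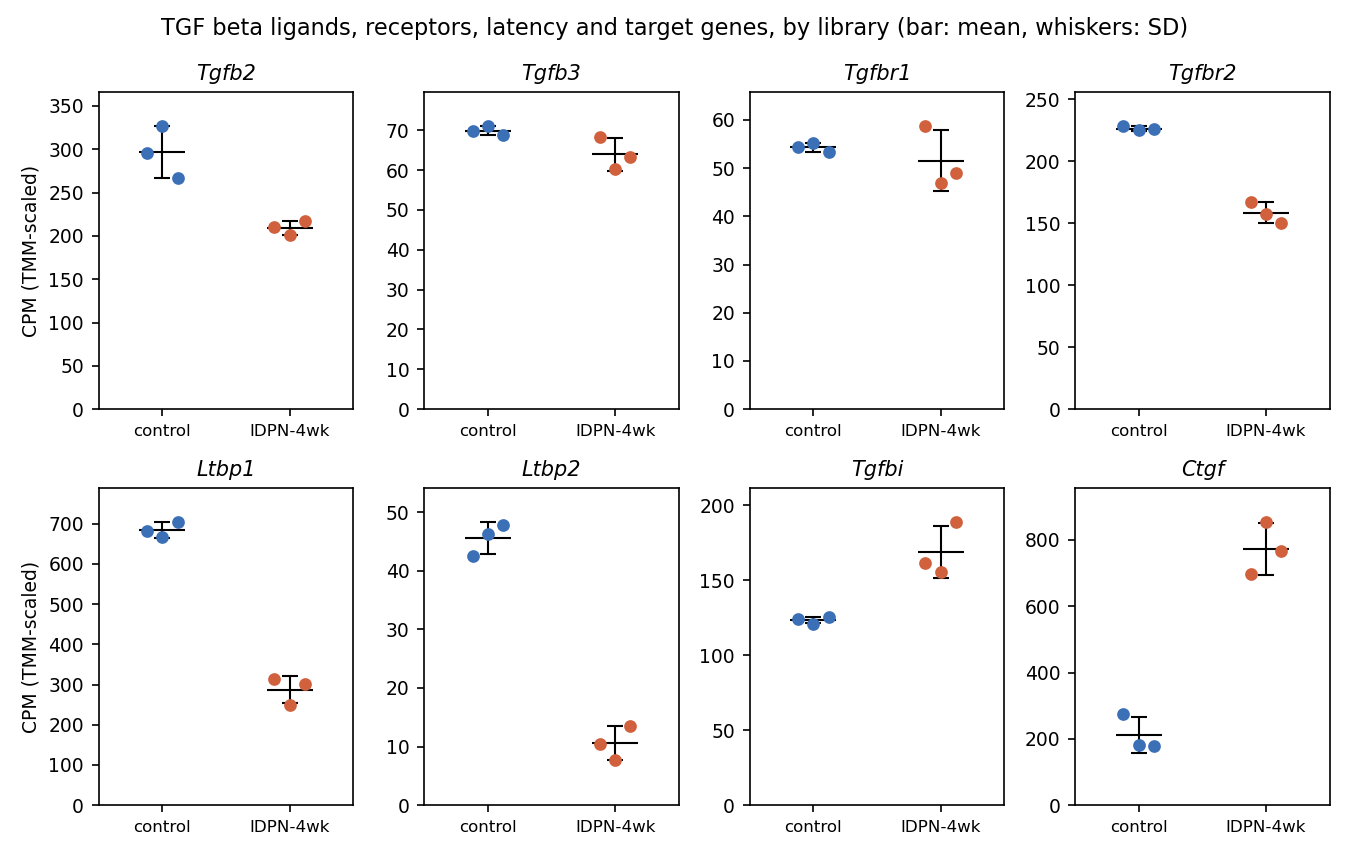
Levels in CPM (vertical axes, each from 0) of TGF beta ligands, receptors, latent TGF beta binding proteins and targets in each library, control in blue and IDPN-4wk in orange, with the mean as a bar and the SD as whiskers. Tgfb2, Tgfbr2, Ltbp1 and Ltbp2 are lower in all exposed animals and Tgfbi and Ctgf higher, while Tgfbr1 overlaps between the groups.

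Of 18 FGF ligands of the secreted kind, 5 could be tested and 1 was called, where 9.71% of all genes tested were called. Fgf9 (ENSRNOG00000011471), which signals between epithelium and mesenchyme in the developing ear, was at 12.7, 16.6 and 13.8 CPM in the controls and 8.63, 8.67 and 9.46 CPM in exposed animals. The exposed animals were nearly alike and below all controls. Fgf9 fell from 14.3 ± 2.01 to 8.92 ± 0.472 CPM (± SD over 3 animals per group, log2-Fold change -0.68, SE 0.16, Padj by edgeR 0.0120). The fall was under 1.5-fold with library size alone (-0.58) and lost its call without control replicate 2 (-0.57, Padj by edgeR 0.0524). Fgf7, a ligand made by stroma that acts on epithelium, was at 3.55, 4.47 and 4.39 CPM in the controls and 3.24, 2.22 and 2.32 CPM in exposed animals, which was not called (log2-Fold change -0.68, SE 0.27, Padj by edgeR 0.106).

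The FGF ligands with the most counts differed least. Fgf10, needed for the formation of the semicircular canals, was at 50.7 ± 2.08 CPM in the controls and 47.9 ± 6.07 CPM in exposed animals (± SD over 3 animals per group, log2-Fold change -0.08, 95% interval from -0.31 to 0.14). Fgf1, a ligand of all FGF receptors, was at 40.5 ± 5.98 CPM in the controls and 40.9 ± 0.608 CPM in exposed animals (± SD over 3 animals per group, log2-Fold change 0.01, 95% interval from -0.23 to 0.26). Fgf3, from 2 to 16 counts per library, had a log2-Fold change of 0.86 (SE 0.64, Padj by edgeR 0.379). Fgf2, Fgf4, Fgf5, Fgf16, Fgf17, Fgf18, Fgf19, Fgf20, Fgf21 and Fgf22 reached at most 10 counts in any library, and Fgf6, Fgf8 and Fgf23 had 0 counts in all 6 libraries. Without a filter on counts, 22 of the 28 untested members could be fitted and none passed both thresholds in edgeR.

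FGF homologous factors are intracellular proteins that bind voltage-gated sodium channels and do not act as secreted ligands. Fgf12 (ENSRNOG00000001931) was at 2.26, 1.75 and 2.90 CPM in the controls and 0.431, 0.516 and 0.966 CPM in exposed animals, from 25 to 41 counts against 6 to 15 counts. The groups did not overlap. Only the controls held enough counts in all 3 libraries for the gene to pass the filter. Fgf12 fell to 27.7% of control (log2-Fold change -1.84, SE 0.43, Padj by edgeR 0.0128). The call was lost in 3 of the 6 fits that left out 1 library, with Padj up to 0.0617. Of 7 neuron markers tested, 2 were downregulated and 2 upregulated, and their sum ranged from 95.1 to 105 CPM in the controls and from 65.5 to 69.7 CPM in exposed animals; their part in the result was not tested.

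Fgf13, the factor also known from sensory neurons, was below the filter, with 6, 12 and 19 counts in control and 1, 0 and 6 counts in IDPN-4wk libraries, a range that met at 6 counts. Fgf14 had at most 8 counts. Fgf11, the other one tested, had a log2-Fold change of 0.76 (SE 0.42, Padj by edgeR 0.240), with 1 control library lower than the others at 10 counts.

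None of the 4 FGF receptors was called, although 3 had lower means. Fgfr1 (ENSRNOG00000016050), the receptor with the most counts, was at 361, 367 and 320 CPM in the controls and 283, 286 and 274 CPM in exposed animals. The exposed animals were below all controls, and the log2-Fold change was -0.32 (SE 0.07, 95% interval from -0.48 to -0.15, Padj by edgeR 0.0142). Padj reached 0.0518 among the 6 fits that left out 1 library. Fgfr2, the epithelial receptor of Fgf7 and Fgf10, went from 152 ± 10.8 to 130 ± 9.08 CPM (± SD over 3 animals per group, log2-Fold change -0.23, SE 0.08, Padj by edgeR 0.0738). Fgfr3, known for supporting cells of the cochlea, was at 39.1 ± 8.10 CPM in the controls and 32.3 ± 1.39 CPM in exposed animals (± SD over 3 animals per group, log2-Fold change -0.28, Padj by edgeR 0.192). Fgfr4 was higher in mean, at 166 ± 23.0 CPM in the controls and 196 ± 24.2 CPM in exposed animals (± SD over 3 animals per group, log2-Fold change 0.24, Padj by edgeR 0.171), and its groups overlapped.

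Feedback inhibitors and targets of FGF signalling were compared with the receptors. Of 13 genes tested, 1 was downregulated and none upregulated, where 9.71% of all genes tested were called. Means were lower for 7 and higher for 6, and the median log2-Fold change was -0.16. The list summed to 399.9 to 404.3 CPM in the controls and 331.2 to 345.4 CPM in exposed animals. Dusp6, Etv1 and Etv5 had the highest means in this sum. Spry4, a Sprouty feedback inhibitor, was at 22.1, 29.1 and 22.8 CPM in the controls and 17.3, 15.4 and 15.6 CPM in exposed animals. It fell below all controls (log2-Fold change -0.62, SE 0.14, Padj by edgeR 0.0101), by less than 1.5-fold with library size alone (-0.51) or without control replicate 2 (-0.48). Etv5 and Etv1, ETS factors of the same output that were picked with their values in view, had edgeR Padj of 0.00505 and 0.0403 with log2-Fold changes of -0.57 and -0.32, under the fold change threshold. Spred3, an inhibitor of ERK signalling also picked with its values in view, had a log2-Fold change of 1.27 in the other direction and was not called (SE 0.49, Padj by edgeR 0.0950). Dusp6, the ERK phosphatase, was at 168 ± 11.3 CPM in the controls and 150 ± 11.0 CPM in exposed animals (± SD over 3 animals per group, log2-Fold change -0.16, Padj by edgeR 0.203).

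Among 12 tested co-receptors, adaptors and binding proteins of the FGF pathway, 1 was upregulated and none downregulated, where 9.71% of all genes tested were called. The upregulated gene was Frs3, an adaptor that links receptors to ERK signalling, at 1.61, 2.10 and 2.34 CPM in the controls and 3.67, 3.61 and 4.44 CPM in exposed animals (log2-Fold change 0.95, SE 0.28, Padj by edgeR 0.0359). Its call was lost in each of the 6 fits that left out 1 library, with Padj from 0.0612 to 0.113. The related adaptor Frs2 had a log2-Fold change of -0.04 (SE 0.09). Flrt3, a membrane protein that binds FGF receptors and was picked with its values in view, had an edgeR Padj of 0.0369 and a log2-Fold change of -0.36.

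**Figure D5:**
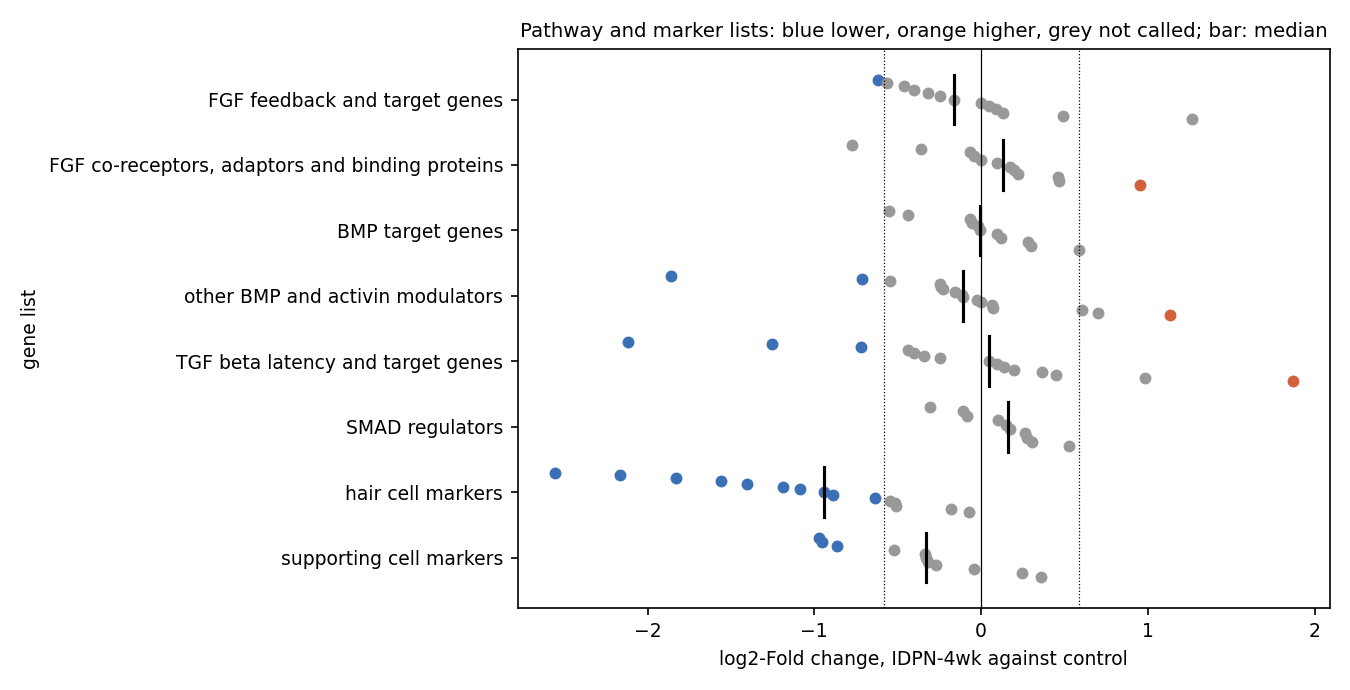
Log2-Fold changes (horizontal axis, IDPN-4wk against control) of the tested genes in 6 pathway lists and in the HC and supporting cell marker lists, with a black bar at each list's median and dotted lines at a 1.5-fold change. The medians of the pathway lists lie between -0.16 and 0.16 and that of the HC markers at -0.94.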

How the data were processed

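RNA-seq libraries were made from 6 rats, 3 per group, with SMART-seq2, which does not keep the strand. The authors mapped reads with STAR 2.5.3a to Rnor6.0 and estimated expected counts per gene with RSEM 1.3.0 (versions per the submitters' processing notes), and they deposited whole numbers, so rounding changed 0 values. RSEM divides shared reads among genes, so values of overlapping genes are uncertain. Of the 48 tested members, 21 overlap another gene in the GRCr8 RefSeq table.

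Low genes were removed by filterByExpr (10 counts at least, 15 in total). The rest were normalised by TMM, and groups were tested two-sided in edgeR 4.0.16 (R 4.3.3) by quasi-likelihood, with Benjamini-Hochberg adjustment over 14352 genes. SEs came from the quasi F statistic. Thresholds were Padj 0.05 and fold change 1.5. Intervals of fold changes cover 95% and come from the fit. Counting floors of 3 counts cover counting error only, since reads carried no molecular identifiers. The fits were tested on simulated data. Replicates are numbered in the order of deposit. Named genes were the called members, the member with the most counts in each role, Bmp2, and called genes of the pathway lists, while others are marked in the text or given by role. The members removed by the filter are given as counts with no fold. Members and lists were chosen with earlier results of these data known. The 6 libraries came from 1 count table, and the sample labels name no batch. Animal codes share a prefix within IDPN-4wk, which cannot be told apart from treatment. Chi-square per degree of freedom between libraries of a group was from 7.94 to 16.1, above sampling noise. Alternatives were other scalings, filters, DESeq2 1.42.0, glmTreat and leaving out each library.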

Additional observations from a re-analysis of the deposited data

How the results depend on the processing

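The 7 member calls were also made with DESeq2 size factors, the DESeq2 test, no filter and a filter on mean CPM above 1. Upper quartile scaling gave 6, without Bmp3, while library size alone, which shifts the median log2-Fold change of all genes by 0.11, left 3 lower members, without Bmp3 and Fgf9. Under glmTreat, which tests against 1.5-fold itself, 2 members were called, 2 lower (Bmp2 and Grem1) and 0 higher, and 453 genes in all, 354 lower and 99 higher. With Padj alone there were 8 lower members and 2778 genes, 1646 lower and 1132 higher. Library size alone gave 762 higher genes, and 50.6% of called genes were then lower against 68.1% with TMM. Leaving out each library gave from 4 to 7 changed members, from 3 to 5 lower and from 1 to 2 higher. The lowest total, 4, came without control replicate 2, control replicate 3 or IDPN-4wk replicate 2. Bmp2, Grem1 and Chrd were called in all 6 of these fits. Of 420 alternative values for single named genes, 383 kept their side of the thresholds, 34 lost a call, 3 gained one and none changed sign with a call. No paired analysis was made, since each library came from a separate animal and the labels give no pairs. Depth limits the members with few counts, such as Fst, Fgf12 and those below the filter.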
